A study of Mus musculus with 43 samples.

Results

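The 10 genes described here mark endothelial cells, the cells that line blood vessels, and were followed as a set of named symbols through RNA from mouse inguinal white fat. They are Kdr, Flt1, Tek, Tie1, Pecam1, Cdh5, Cldn5, Emcn, Vwf and Egfl7, 10 of 26264 gene symbols in the deposited count tables, and all 10 were present in each table of fat. The series holds 43 libraries in 15 groups, of which 25 libraries are brown adipocyte cultures and 18 libraries in 6 groups of 3 are inguinal fat. Its title names deletion of RUNX1 or RUNX2, a pair of related transcription factors, in adipocytes, and the formation of beige fat.

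Each fat knockout was compared with the control of its own count table. The group labelled Adipoq-cre:Runx1 KO was set against mice of genotype WT that carried Runx1 flox, and the group labelled Adipoq-cre:Runx2 KO against mice of genotype WT that carried Runx2 flox. The remaining pair is a Runx1 knockout and a WT group, both marked HFD, an abbreviation that the labels do not spell out; their labels name neither a Cre nor a floxed allele. Adipoq-cre places the recombinase under the adiponectin promoter, which is active in adipocytes, so the endothelial cells of these mice are not the cells the transgene is meant to recombine. Ages and sexes are not given in the sources used here, and the labels do not say whether the 3 libraries of a group came from 3 animals, so every p-value measures only the spread between these libraries.

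Vascular endothelial growth factor A (VEGF-A), which adipocytes secrete, acts on endothelial cells mainly through the receptor tyrosine kinase encoded by Kdr, while the product of Flt1 binds the same ligand tightly and signals weakly. Angiopoietins act through the receptor encoded by Tek, with the Tie1 product as its partner. Neighbouring endothelial cells are joined by VE-cadherin (Cdh5), PECAM-1 (Pecam1) and claudin-5 (Cldn5). Emcn encodes a surface sialomucin of capillaries and veins, Vwf the clotting glycoprotein that endothelial cells store, and Egfl7 a secreted protein of the vessel wall. White fat is densely supplied with capillaries, and in RNA from whole tissue fewer cells of a type and less RNA per cell cannot be told apart.

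Library totals in fat ran from 32536762 to 52171378 counts. Several libraries stood apart in markers of other cells. In the Runx1 table, control replicate 2 and knockout replicates 2 and 3 summed to 7873, 18490 and 8554 CPM (counts-per-million, scaled within each table) over 10 skeletal muscle genes, against 46.0 to 265 CPM in the other 3 libraries. In the Runx2 table, the library labelled control replicate 3 differed from both other controls: its 12 mature adipocyte genes summed to 77744 CPM against 28848 and 32715, its B cell genes to 324 CPM against 2045 and 2213, and its skeletal muscle genes to 8354 CPM against 103 and 119. In the HFD table the B cell genes summed to 223 to 556 CPM in WT and 6.04 to 9.30 CPM in the knockout. Calls on the 10 genes, and their correlations, are given with and without these libraries.

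The stretch of up to 250 bases before the start of each gene was read for letters that DNA-binding factors recognise. For RUNX factors these were TGTGGT and TGCGGT, the core of their site. For ETS factors, which are central regulators of endothelial genes, they were AGGAAG and CGGAAG, only some forms of an ETS site. The Adipoq-cre knockouts are meant for adipocytes, so the letters in these endothelial genes describe sequence alone. RefSeq promoters (build GRCm38.p6, whereas the counts were made on mm39) were at hand for 7 of the 10 genes; Pecam1, Cdh5 and Vwf were not matched. Both strands were read, and a RUNX and an ETS match can share at most 1 end base. The 4 stretches below belong to both VEGF receptors, the angiopoietin receptor and the claudin, and are shown because Kdr and Cldn5 are the members that passed the test in the Runx1 knockout below, while the related receptor genes Flt1 and Tek did not pass it. They lie at chr5:75978459-75978705 on the minus strand for Kdr, chr5:147726012-147726261 on the minus strand for Flt1, chr4:94739039-94739288 on the plus strand for Tek and chr16:18776597-18776846 on the plus strand for Cldn5. Each is written 5′ to 3′ in the direction of its gene, with RUNX and ETS letters on either strand in capitals.
Kdr: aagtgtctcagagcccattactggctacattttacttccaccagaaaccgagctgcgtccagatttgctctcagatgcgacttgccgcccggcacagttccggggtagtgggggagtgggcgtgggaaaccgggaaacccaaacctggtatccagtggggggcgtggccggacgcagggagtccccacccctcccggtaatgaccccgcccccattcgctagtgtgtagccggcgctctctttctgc
Flt1: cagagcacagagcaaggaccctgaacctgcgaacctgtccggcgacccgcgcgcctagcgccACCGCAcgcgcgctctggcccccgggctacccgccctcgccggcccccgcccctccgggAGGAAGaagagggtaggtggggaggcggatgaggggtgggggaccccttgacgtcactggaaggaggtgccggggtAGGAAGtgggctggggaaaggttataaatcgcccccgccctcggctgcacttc
Tek: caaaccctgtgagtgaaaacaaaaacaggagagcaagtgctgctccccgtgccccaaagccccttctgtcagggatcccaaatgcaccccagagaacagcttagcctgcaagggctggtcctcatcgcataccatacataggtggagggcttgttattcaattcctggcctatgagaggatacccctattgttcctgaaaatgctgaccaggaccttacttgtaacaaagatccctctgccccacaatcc
Cldn5: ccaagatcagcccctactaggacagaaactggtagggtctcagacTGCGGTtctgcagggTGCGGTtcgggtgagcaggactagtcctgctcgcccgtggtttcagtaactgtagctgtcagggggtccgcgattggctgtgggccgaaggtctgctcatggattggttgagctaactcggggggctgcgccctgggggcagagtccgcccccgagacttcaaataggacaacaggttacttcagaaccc
The Cldn5 stretch holds TGCGGT in 2 places, 205 to 200 and 190 to 185 bases before the start, and no ETS letters. Flt1 holds the reverse complement of TGCGGT 188 to 183 bases before the start and AGGAAG at 129 to 124 and 53 to 48 bases. Kdr, whose stretch ends 4 bases before its start, and Tek hold neither set of letters. Other forms of an ETS site were not looked for. Among the remaining members, Tie1 and Emcn hold 2 ETS matches each, Egfl7 holds 3, 1 and 0 in its 3 promoters, and none of these holds the RUNX letters. Of 32851 mouse promoter windows of 250 bases, 18.6% hold the RUNX letters at least once and 2.01% hold them 2 or more times, while 39.2% and 11.3% do so for the ETS letters. These matches describe the letters in the windows and are not shown to be bound sites.

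All 10 genes were abundant in fat and nearly absent from the adipocyte cultures. Scaled by library total alone, they summed to 839 to 2698 CPM in the 18 fat libraries and to 9.74 to 45.2 CPM in the 25 culture libraries, where the highest value, an overexpressed RUNX1 library, falls to 31.7 CPM when that library is left out. Cldn5 had no count in 22 of 25 culture libraries, Tie1 and Emcn in 20 and Cdh5 in 18. Egfl7 was the exception, with 8.69 to 24.7 CPM in every culture. Cultures and fat differ in tissue and table at once, and no test was made between them.

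To compare levels between genes, CPM scaled by library total alone in the 18 fat libraries were divided by the length of each gene's merged exons in kilobases. Cldn5 then stood highest, with a median of 191.7 CPM per kilobase (61.3 to 709), and Vwf lowest, with 2.48. Between them came Cdh5 at 70.0, Pecam1 at 62.6, Egfl7 at 34.0, Kdr at 20.4, Tie1 at 19.6, Flt1 at 11.9, Tek at 7.45 and Emcn at 6.93. The medians of neighbours such as Cdh5 and Pecam1, Kdr and Tie1, or Tek and Emcn differ by less than the spread of either gene over the libraries. Cldn5 held the first place and Vwf the last in each of the 6 groups.

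**Figure D1:**
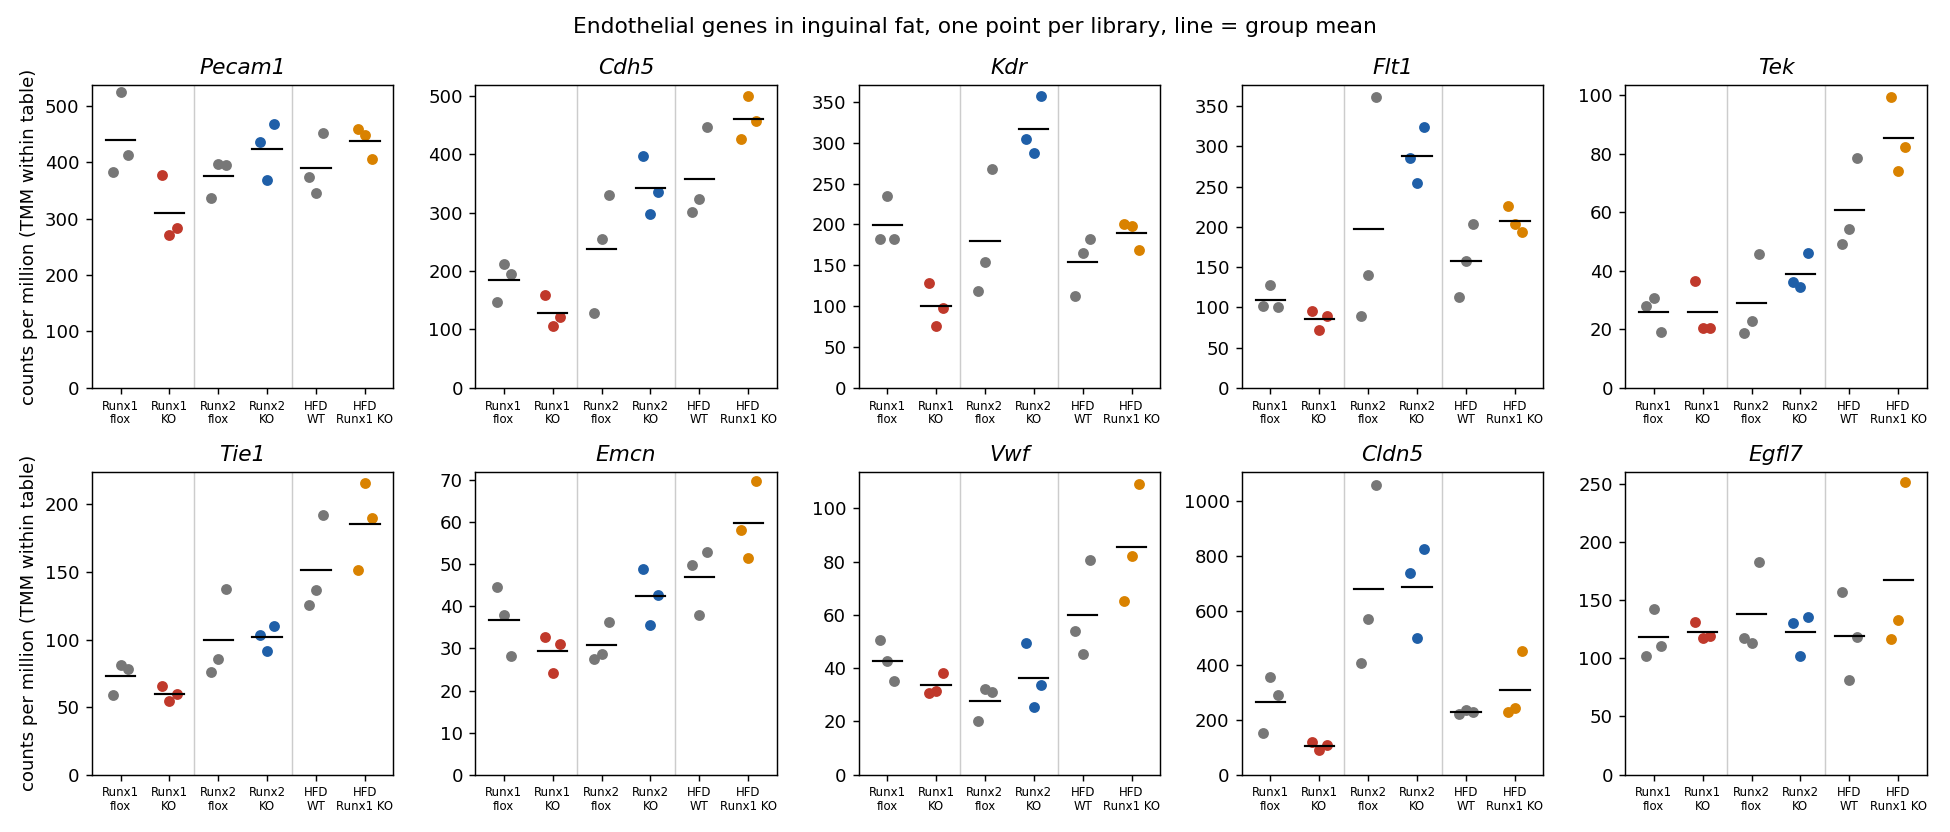
Each panel shows 1 of the 10 genes, with CPM scaled within each table on the vertical axis and the 6 fat groups along the horizontal axis; each point is 1 library and each line a group mean. Kdr and Cldn5 lie lower in all 3 Runx1 KO libraries than in their 3 controls, and the library labelled Runx2 flox control replicate 3 is the highest grey point for Kdr, Flt1, Tek, Tie1 and Cldn5 in its group.

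In inguinal fat of the Runx1 knockout, 2 of the 10 endothelial genes fell and none rose: the VEGF receptor gene Kdr to a mean of 100.6 CPM from 199, or 1.98-fold lower, and the tight junction gene Cldn5 to 106 CPM from 267, or 2.51-fold lower (n = 3 libraries a group). Across all 15896 genes tested, 3.03% were called lower, 4.45% higher and 7.48% in either direction, by edgeR's quasi-likelihood test at an adjusted p under 0.05. The other 8 genes did not pass, although 9 of the 10 had a log2 fold change below 0 and their median was −0.36, beside a median of −0.0037 for all genes. Of the 15 genes in a list of VEGF, angiopoietin and apelin ligands and co-receptors, 4 fell (Vegfa, Pgf, Angpt2 and Angptl4) and none rose; of 18 Notch, ephrin and BMP genes, 5 rose, among them Hey1, Hey2 and Jag1, and 1 fell.

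The targeted gene itself was at 25.2, 28.3 and 42.7 CPM in the controls and at 20.7, 20.8 and 21.4 CPM in the knockouts. Each knockout library lay below each control, but the log2 fold change of −0.62 ± 0.19 (SE) did not pass (edgeR adjusted p = 0.078). Runx2, not targeted here, was at 12.9, 7.59 and 10.7 CPM against 5.75, 7.42 and 7.73 CPM, with overlapping groups. Its change of −0.58 did not pass (edgeR adjusted p = 0.180). Fat holds many cells that the adiponectin promoter does not reach, and how much of the remaining Runx1 RNA comes from them was not tested.

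Among the VEGF receptors, Kdr stood at 182, 234 and 182 CPM in the controls and at 128, 75.7 and 98.3 CPM in the knockouts. No knockout library reached the lowest control, and the log2 fold change was −0.99 ± 0.19 (SE, edgeR adjusted p = 0.018). Flt1 stood at 102, 127 and 100.3 CPM against 96.1, 71.8 and 89.1 CPM. Its groups did not overlap either, but the gap between the nearest libraries was small and the change of −0.36 ± 0.15 did not pass (adjusted p = 0.158).

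The angiopoietin receptors overlapped between the groups. Tek was at 27.9, 30.8 and 19.1 CPM in the controls and at 36.5, 20.5 and 20.5 CPM in the knockouts, a log2 fold change of −0.011 ± 0.26 (adjusted p = 0.982). The highest and the lowest of these 6 values are a knockout and a control library. Tie1 was at 59.0, 81.3 and 78.5 CPM against 65.8, 54.5 and 59.5 CPM, with knockout replicates 1 and 3 above the lowest control (−0.29 ± 0.15, adjusted p = 0.254).

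Of the 3 junction genes, Cldn5 had the widest controls. It was at 152, 359 and 290 CPM in the controls and at 121, 89.2 and 109 CPM in the knockouts, with a log2 fold change of −1.33 ± 0.29 (edgeR adjusted p = 0.037). The knockouts lay close together and all below the lowest control. Pecam1 was at 382, 524 and 414 CPM against 377, 272 and 283 CPM (−0.51 ± 0.18, adjusted p = 0.109), and Cdh5 at 147, 211 and 195 CPM against 159, 106 and 121 CPM (−0.53 ± 0.18, adjusted p = 0.107). For Cdh5, knockout replicate 1 lay above the lowest control, and for Pecam1 it lay just below.

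The remaining members gave overlapping groups. Emcn was at 44.6, 37.9 and 28.1 CPM against 32.8, 24.2 and 31.0 CPM (−0.34 ± 0.19), and Vwf at 50.7, 42.7 and 35.0 CPM against 30.8, 31.5 and 38.2 CPM (−0.36 ± 0.17). Egfl7 was at 102, 142 and 110 CPM against 131, 117 and 119.5 CPM, the only member above 0 (0.051 ± 0.14, adjusted p = 0.855). In all, 4 of the 10 members (Kdr, Cldn5, Flt1 and Pecam1) had every knockout below every control, where 13.9% of all tested genes did, and 5 of the 10 had an unadjusted p under 0.05, where 3994 of 15896 genes did.

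Both calls depend on single libraries, and skeletal muscle transcripts were uneven between the libraries. All 10 muscle genes had a log2 fold change above 0 (median 1.86, none called). Their sums were 46.0, 7873 and 108 CPM in the controls and 265, 18490 and 8554 CPM in the knockouts. In the controls 4, 0 and 2 of the 10 genes had no count. Among the muscle-rich libraries, control replicate 2 had the highest Kdr (234 CPM) and Cldn5 (359 CPM) of all 6 libraries. Knockout replicate 2 had the lowest (75.7 and 89.2 CPM). With the summed muscle genes as a covariate over all 6 libraries, Kdr was at −0.96 (adjusted p = 0.061) and Cldn5 at −1.44 (0.049). Leaving out the 3 muscle-rich libraries together leaves knockout replicate 1 alone against control replicates 1 and 3, and the fit then assumes that this lone library varies as the controls do. There Kdr was at −0.51, Cldn5 at −0.88 and the median member at −0.095, and no member was called; with 1 knockout library a lost or a kept call says little, and values of this fit are given below as sizes only. The part of the muscle transcripts in the result was not tested beyond this. Kdr was also lost without knockout replicate 2 (−0.82, adjusted p = 0.093) or replicate 3 (−0.97, 0.068), while Cldn5 passed in 1 of the 6 fits that each left out 1 library, the one without control replicate 1.

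**Figure D2:**
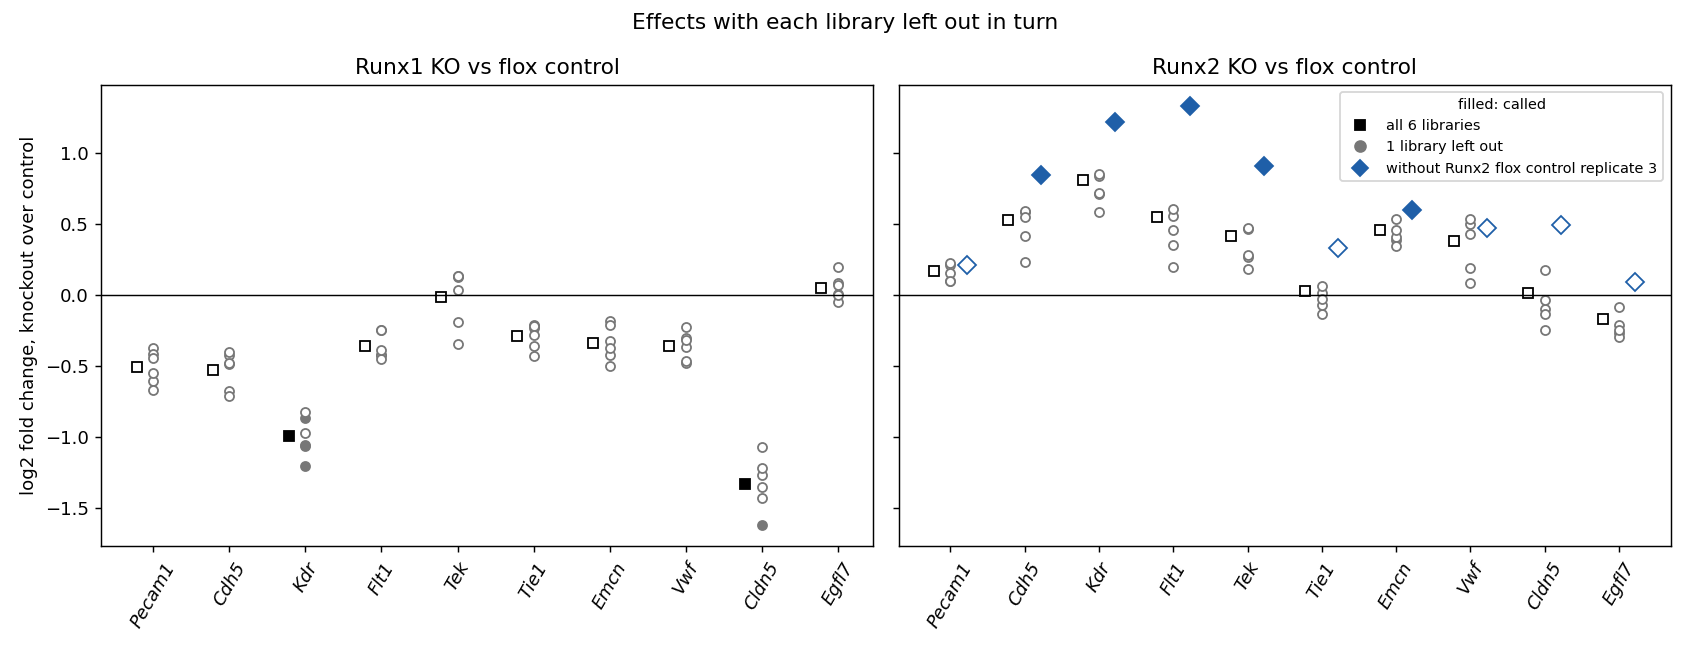
Log2 fold changes of the 10 genes, knockout over control, for Runx1 (left) and Runx2 (right): squares use all 6 libraries, circles leave out 1 library each, diamonds leave out the library labelled Runx2 flox control replicate 3, and filled symbols passed at an adjusted p under 0.05. Kdr and Cldn5 are the filled squares on the left, and on the right 5 genes are filled, each in the fit without that library.

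The 36 further endothelial genes are a list of vascular transcription factors, receptors and surface proteins. In the Runx1 knockout 26 of 36 had a log2 fold change below 0 (median −0.25, beside −0.0037 for all genes). Of the 36, 1 was called higher and 3 lower, where 4.45% of all tested genes were called higher and 3.03% lower. Sox17, a transcription factor of arterial endothelium, fell 3.98-fold, from 63.5, 171 and 124 CPM to 32.8, 25.4 and 32.0 CPM (−2.00 ± 0.36, edgeR adjusted p = 0.032). All knockouts lay well below the lowest control. Cd93, a surface receptor that takes part in angiogenesis, was at 75.6, 77.6 and 61.8 CPM against 53.6, 32.4 and 39.2 CPM (−0.78 ± 0.18, adjusted p = 0.034). Ptprb, the endothelial phosphatase that acts on the Tek product, was at 123, 164 and 119 CPM against 99.2, 66.2 and 81.3 CPM (−0.73 ± 0.18, adjusted p = 0.037). Myct1, an endothelial membrane protein, went the other way, from 4.67, 3.45 and 2.98 CPM to 19.4, 14.5 and 12.6 CPM (2.06 ± 0.26, adjusted p = 0.0036). It stood 4.18-fold higher in the knockouts and was called in every alternative tried. With the muscle covariate Sox17 (−2.15, adjusted p = 0.023) and Myct1 (2.23, 0.0068) passed, while Cd93 (−0.70, 0.105) and Ptprb (−0.74, 0.100) did not. With the 1 knockout library low in muscle transcripts against its 2 controls, Sox17 was at −1.52, Myct1 at 2.33, Cd93 at −0.36 and Ptprb at −0.29. Of the leave-one-out fits, Sox17 passed in 2 of 6, those without control replicate 1 or 2, Cd93 in those without control replicate 3 or knockout replicate 1, and Ptprb in that without knockout replicate 1.

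Genes for 3 ligands of the members' receptors fell, and others did not. Of the 15 VEGF, angiopoietin and apelin genes, 4 fell, none rose, 5 had a log2 fold change above 0 and the median was −0.63. Vegfa was at 415, 636 and 349 CPM in the controls and 196, 153 and 180 CPM in the knockouts (−1.41 ± 0.22, edgeR adjusted p = 0.0084). Angptl4, a secreted inhibitor of lipoprotein lipase made by adipocytes, was at 568, 845 and 532 CPM against 252, 285 and 253 CPM (−1.30 ± 0.19, adjusted p = 0.0069). Pgf, encoding the placental growth factor that binds the Flt1 product, was at 7.84, 18.5 and 15.3 CPM against 4.99, 5.56 and 5.18 CPM (−1.41 ± 0.30, adjusted p = 0.022). In each of these 3 genes the knockouts were tightly grouped and below every control. Angpt2, which encodes a ligand of the Tek receptor, was at 12.1, 18.8 and 18.7 CPM against 8.55, 7.59 and 9.69 CPM (−0.94 ± 0.22, adjusted p = 0.033); it lies outside the naming rule and was chosen after its values were seen. Ligand genes on the other side of 0 were Vegfb, for a further ligand of the Flt1 product, at 79.5, 98.4 and 73.4 CPM against 122, 118 and 113 CPM (0.48 ± 0.13, adjusted p = 0.052), Vegfc (0.39 ± 0.38) and Angpt1 (0.13 ± 0.22). All Vegfb knockouts lay above all controls, yet the gene did not pass. Angptl4, Vegfa and Pgf passed with the muscle covariate, and with the lone knockout library low in muscle transcripts they were at −1.13, −0.97 and −1.21. Vegfa was lost without knockout replicate 2 (adjusted p = 0.062), and Pgf passed in the fits without control replicate 1 or 2 but in none of the other 4.

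Notch, ephrin and BMP genes of the vessel wall moved upward in part: 5 of 18 rose, 1 fell, and the median was 0.14. Hey2, a transcriptional repressor that Notch switches on in arterial cells, went from 2.35, 2.26 and 2.16 CPM to 7.30, 7.57 and 12.1 CPM (1.99 ± 0.28, edgeR adjusted p = 0.0069). Its relative Hey1 went from 5.28, 5.80 and 6.47 CPM to 14.5, 12.2 and 10.7 CPM (1.09 ± 0.21, adjusted p = 0.018), and the Notch ligand gene Jag1 from 24.3, 22.7 and 20.1 CPM to 45.7, 35.8 and 36.0 CPM (0.80 ± 0.15, adjusted p = 0.017). These 3 genes are also expressed by cells other than endothelium. Smad6, an inhibitor of BMP signalling, fell from 14.6, 34.8 and 27.9 CPM to 12.7, 6.88 and 9.36 CPM (−1.42 ± 0.34, adjusted p = 0.041). The receptor genes Notch1 (−0.22 ± 0.14) and Notch4 (−0.32 ± 0.25) did not pass and lay below 0. With the muscle covariate Hey2, Jag1 and Hey1 passed and Smad6 did not (−1.46, adjusted p = 0.080); with the lone knockout library low in muscle transcripts Jag1 was at 1.04, Hey2 at 1.69, Hey1 at 1.30 and Smad6 at −0.74. Jag1 was lost in the fits without any 1 of the 3 knockout libraries, Hey1 in those without knockout replicate 1 or 2, and Smad6 in 5 of the 6.

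**Figure D3:**
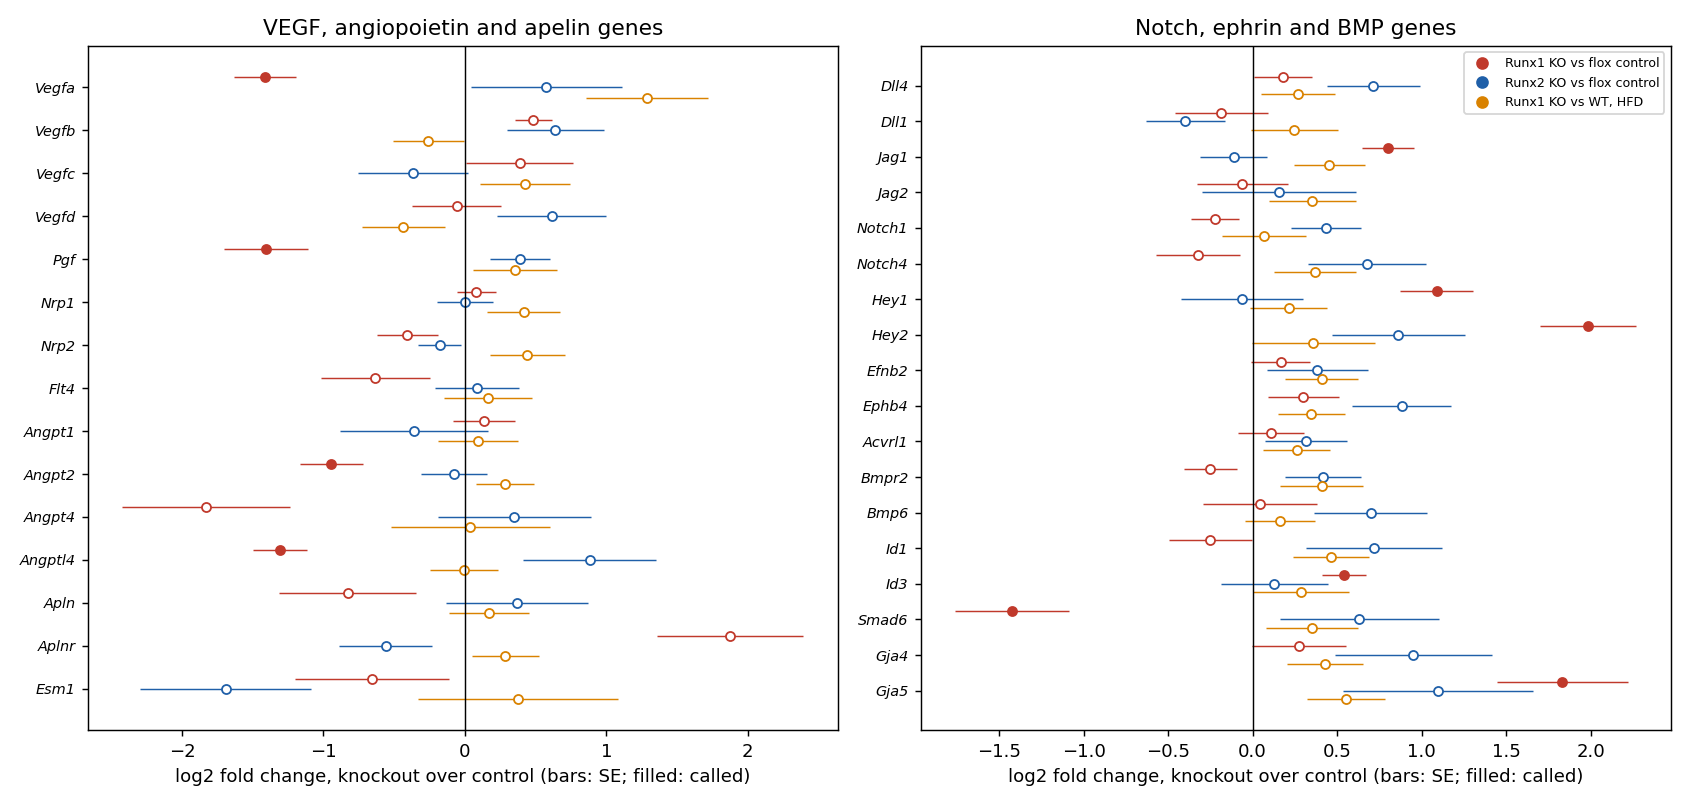
Log2 fold changes with standard errors, knockout over control, for the 15 VEGF, angiopoietin and apelin genes (left) and the 18 Notch, ephrin and BMP genes (right) in the 3 comparisons; filled points passed at an adjusted p under 0.05. Filled points occur only in the Runx1 comparison, with Vegfa, Pgf and Angptl4 on the lower side and Hey1, Hey2 and Jag1 on the higher side.

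In the Runx2 knockout no endothelial gene passed, and no gene of the 15574 tested did (0% called by edgeR). At an unadjusted p under 0.05 stood 2 of the 10 members, Kdr and Emcn, and 3206 of all genes; DESeq2 called 955 genes and none of the 10. Of the 10 log2 fold changes 9 were above 0, with a median of 0.40 beside −0.041 for all genes. Kdr was the only member whose groups did not overlap, with every knockout above every control, as was the case for 13.8% of all genes.

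The targeted gene was at 14.9, 10.5 and 4.19 CPM in the controls and at 3.82, 6.78 and 2.40 CPM in the knockouts. Its log2 fold change of −1.19 did not pass (edgeR adjusted p = 0.254). The library labelled control replicate 3 lay below knockout replicate 2. Runx1, not targeted here, was at 34.7, 31.2 and 14.7 CPM in the controls and at 8.98 to 12.3 CPM in the knockouts. Its groups did not overlap, and its log2 fold change of −1.28 did not pass (edgeR adjusted p = 0.218). The library labelled control replicate 3 was the lowest control for Runx1 as well as Runx2, so its Runx2 level does not check its label.

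Kdr was at 118, 154 and 268 CPM in the controls and at 305, 288 and 357 CPM in the knockouts, a mean 1.76-fold higher (log2 fold change 0.81 ± 0.31, edgeR adjusted p = 0.229). Flt1 was at 89.3, 140 and 362 CPM against 285, 255 and 324 CPM (0.55 ± 0.48, adjusted p = 0.496). The library labelled control replicate 3 was the highest of all 6 for Flt1, and the first 2 controls were below all knockouts. Tek gave 18.7, 22.9 and 45.9 CPM against 36.4, 34.6 and 46.1 CPM (0.42 ± 0.34) at a lower level, with the library labelled control replicate 3 next to the highest knockout. Tie1 gave 75.8, 85.5 and 138 CPM against 103, 91.8 and 110 CPM (0.026 ± 0.25), with the library labelled control replicate 3 highest.

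Among the junction genes, Cdh5 was at 128, 254 and 330 CPM in the controls and 396, 297 and 335 CPM in the knockouts (0.53 ± 0.34, adjusted p = 0.374). Pecam1 varied least, with 336, 398 and 395 CPM against 436, 369 and 468 CPM (0.17 ± 0.20). Cldn5 spread widely in both groups, with 409, 568 and 1060 CPM against 737, 499 and 824 CPM (0.014 ± 0.39, adjusted p = 0.983). Its fitted change lay close to 0, but an SE of that size does not show that the groups are alike. Emcn was at 27.5, 28.7 and 36.3 CPM against 49.0, 35.5 and 42.8 CPM (0.46 ± 0.19, adjusted p = 0.236), and Vwf at 20.0, 32.2 and 31.1 CPM against 49.4, 25.4 and 33.5 CPM (0.38 ± 0.29). Egfl7 was the single member below 0, with 118, 113 and 183 CPM against 130, 102 and 136 CPM (−0.17 ± 0.24).

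Without the library labelled control replicate 3, which leaves 2 controls against 3 knockouts, edgeR called 6354 of 15875 genes (40%; 20.9% higher and 19.1% lower) and 5 of the 10 members, all higher in the knockouts. These were Flt1 (log2 fold change 1.33, adjusted p = 0.0016), Kdr (1.21, 0.0012), Tek (0.91, 0.0042), Cdh5 (0.84, 0.036) and Emcn (0.59, 0.020). The library left out held the highest control level of each of these 5, so its absence by itself raises their fold changes. The other 5 lay between 0.089 for Egfl7 and 0.49 for Cldn5 and did not pass. Runx2 itself then stood at −1.55 (adjusted p = 0.010). The library left out held the lowest control level of Runx2, so its absence by itself widens this change too. In the other fits that each left out 1 library no member passed.

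Markers of other cells moved with this comparison. The adipocyte genes summed to 28848, 32715 and 77744 CPM in the controls and 90547, 73694 and 88907 CPM in the knockouts, and the B cell genes to 2045, 2213 and 324 CPM against 547, 699 and 288 CPM. In both sums the library labelled control replicate 3 lies within the range of the knockouts. In other sums it lay above every knockout. For T cell genes it was at 893 CPM against 694, 848 and 645, with the other controls at 2168 and 1776. For macrophage genes it was at 1228 CPM against 1154, 1187 and 998, with the other controls at 1895 and 1670. For skeletal muscle genes it was at 8354 CPM against 163, 522 and 393. In the sum of the 10 endothelial genes it is the highest of the 6 (1340, 1796 and 2847 CPM against 2528, 1997 and 2675 CPM). With the adipocyte sum as a covariate, 5 of the 10 members changed sign, among them Flt1 (−0.49) and Cldn5 (−0.82), and Kdr stood at 0.14. With a lymphocyte score as covariate, 4 did. Neither of these fits called a member, and the part of the tissue's make-up in the Runx2 result was not tested further.

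**Figure D4:**
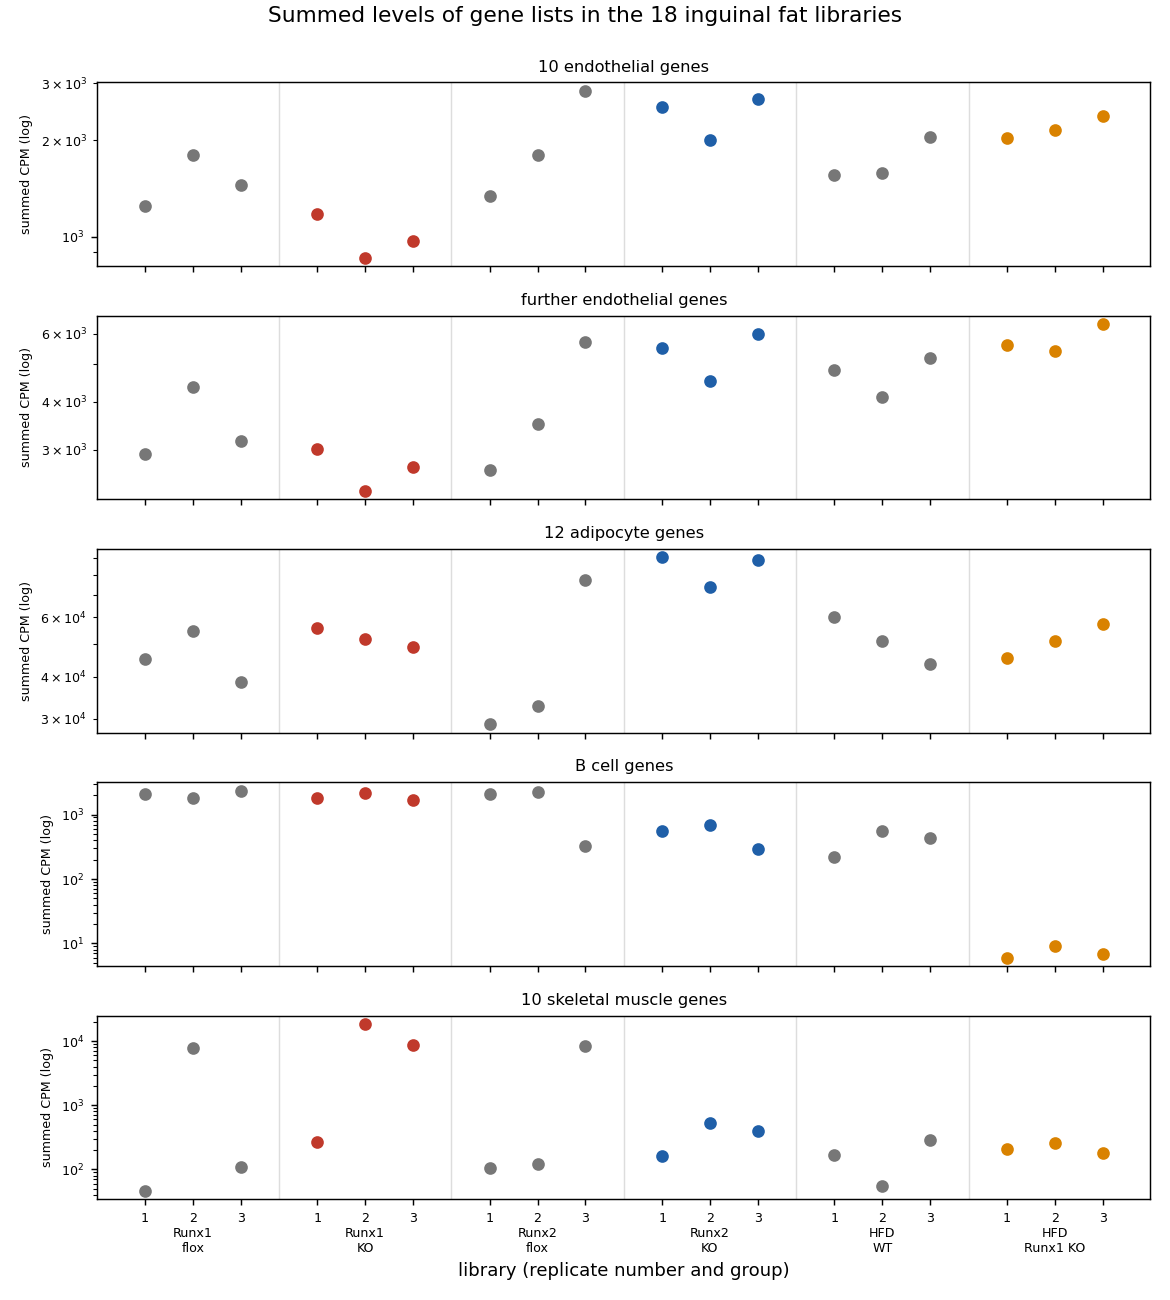
Summed CPM on a log axis for 5 gene lists in each of the 18 fat libraries, ordered by group and replicate number. In the library labelled Runx2 flox control replicate 3 the endothelial sum of 2847 CPM is the highest of its table and the adipocyte sum of 77744 CPM lies within the range of the Runx2 KO libraries, and the B cell sum falls to 6.04 to 9.30 CPM in the HFD Runx1 KO libraries.

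The wider vascular lists shifted likewise in the Runx2 table, with none called: 31 of 36 further endothelial genes had a log2 fold change above 0 (median 0.49), as did 15 of 18 Notch, ephrin and BMP genes (median 0.53) and 9 of 15 VEGF and angiopoietin genes (median 0.086). Without the library labelled control replicate 3, where 20.9% of all genes were called higher and 19.1% lower, 27 of the 36 were called higher and 2 lower, 15 of the 18 higher and none lower, and 4 of the 15 higher and 1 lower.

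In the HFD pair all 10 endothelial genes had a log2 fold change above 0 in the Runx1 knockout, from 0.16 for Pecam1 to 0.51 for Vwf with a median of 0.38, yet none passed and all 10 pairs of groups overlapped, where 5.57% of all genes were higher and 6.71% lower in every knockout than in every WT library. Of 15058 genes tested, 2.11% were called, 0.0465% higher and 2.07% lower, by edgeR. No member had an unadjusted p under 0.05, where 1280 genes did, and DESeq2 called none of the 10. The authors' deposited table for this pair lists 403 genes, 385 of them below 0, and holds none of the 10 and none of the 36 further endothelial genes. That table reaches down to an absolute log2 fold change of 1.02, which no member approaches.

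Runx1 was at 8.64, 16.7 and 17.9 CPM in WT and at 13.1, 13.9 and 8.10 CPM in the knockout (log2 fold change −0.30 ± 0.32, edgeR adjusted p = 0.955), so in these libraries the level of the targeted gene does not check the labels. Tek had the lowest p among the members, with 49.2, 54.2 and 78.7 CPM in the libraries labelled WT and 99.5, 74.1 and 82.2 CPM in those labelled knockout (0.49 ± 0.23, adjusted p = 0.587). Only WT replicate 3 overlapped with the knockouts. Kdr was at 113, 166 and 183 CPM against 200.3, 198 and 169 CPM (0.30 ± 0.23), and Flt1 at 112, 158 and 204 CPM against 226, 203 and 194 CPM (0.39 ± 0.24). For these receptors the first WT library was the lowest of the 6. Tie1 was at 125, 136 and 192 CPM against 151, 216 and 190 CPM (0.30 ± 0.23).

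Cdh5 was at 300.7, 323 and 447 CPM in WT and 426, 499 and 457 CPM in the knockout (0.37 ± 0.23), and Pecam1 at 373, 346 and 453 CPM against 460, 448 and 405 CPM (0.16 ± 0.22). For Cldn5, WT lay within 221 to 237 CPM, and the knockout at 229, 243 and 454 CPM (0.43 ± 0.27). Knockout replicate 3 alone carried the Cldn5 difference, and it was also highest for Egfl7, Vwf and Emcn. Egfl7 was at 157, 81.7 and 119 CPM against 116, 133 and 252 CPM (0.49 ± 0.32), Vwf at 54.0, 45.4 and 80.7 CPM against 65.3, 82.1 and 109 CPM (0.51 ± 0.26), and Emcn at 49.9, 37.9 and 52.9 CPM against 58.2, 51.6 and 69.7 CPM (0.35 ± 0.21).

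Lymphocyte genes fell in this pair: 10 of 10 B cell and 12 of 12 T cell genes tested were called lower, which is 22 of the 318 genes called. The B cell receptor genes Cd79a and Cd79b went from 53.5, 98.9 and 87.2 CPM to 0.632, 0.722 and 0.91 CPM and from 45.2, 76.4 and 49.3 CPM to 0.829, 1.21 and 1.29 CPM, and Fcrla fell alike (−4.79 ± 0.37). Of T cell genes, the chemokine receptor gene Ccr7 was at −4.64 ± 0.55, Cd4 at −3.42 ± 0.44 and Tcf7 at −4.24 ± 0.58. Among 10 stromal progenitor genes 2 fell, Thy1 (−1.47 ± 0.24, edgeR adjusted p = 0.0066), which T cells also express, and Dpp4 (−1.43 ± 0.29, 0.021). The T cell genes summed to 151 to 481 CPM in WT and 8.66 to 28.9 CPM in the knockout. Glycam1 and Chst4, both of the high endothelial venules through which lymphocytes enter lymph nodes, were also called lower, with 6.01, 13.6 and 9.49 CPM and 0.617, 2.12 and 0.786 CPM in WT and no count in any knockout library. They mark a vessel type that the 10 members do not separate from others. Of the wider lists, 33 of 36 endothelial genes (median 0.32), 18 of 18 Notch, ephrin and BMP genes (median 0.35) and 12 of 15 VEGF and angiopoietin genes (median 0.28) lay above 0, none called. With a lymphocyte score as covariate Pecam1, Tie1 and Egfl7 changed sign and no gene of the table was called. B cell and T cell sums do not overlap between these groups, so that fit can hardly separate lymphocyte content from the knockout. The part of lymphocyte content in the members' shift was not tested.

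**Figure D5:**
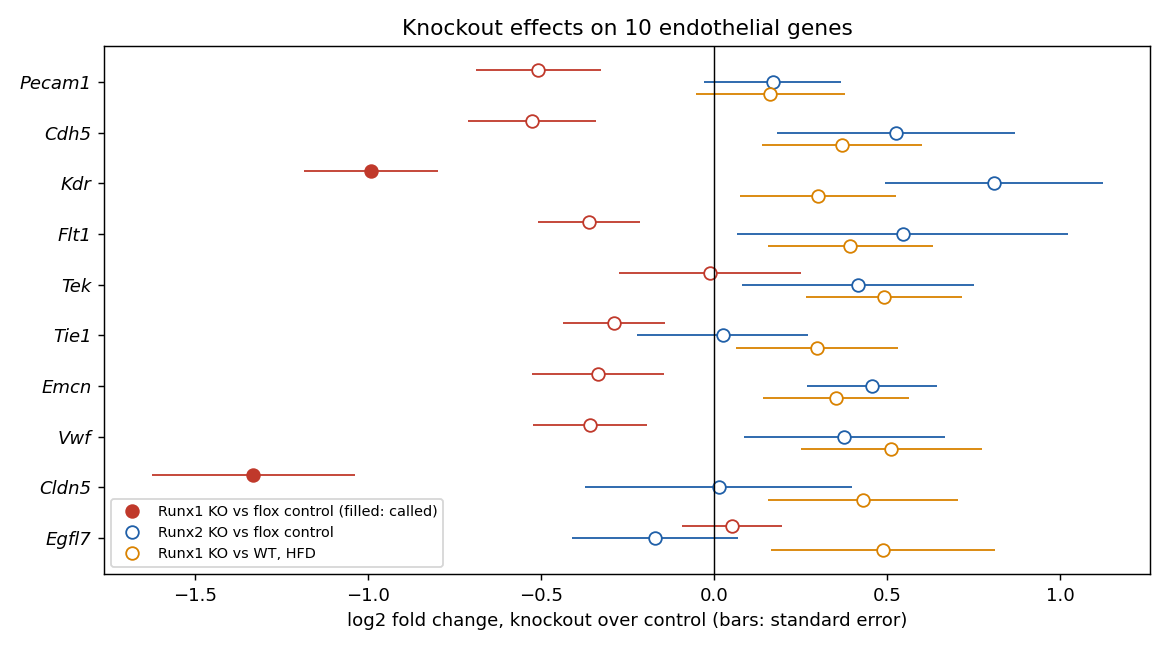
Log2 fold change with its standard error for each of the 10 genes in the 3 comparisons of a knockout with its control; filled points passed at an adjusted p under 0.05. Only Kdr (−0.99) and Cldn5 (−1.33) in the Runx1 comparison are filled, and 9 of 10 Runx1 points lie left of 0 while all 10 HFD points lie right of it.

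Whether the knockout effects differed was tested directly in 1 fit of all 18 fat libraries over 16702 genes, each effect taken against its own control. Both contrasts use the Runx1 table and so share its 6 libraries. Kdr differed between the Runx2 and the Runx1 knockout, with the Runx2 effect 1.83 ± 0.37 higher on the log2 scale (edgeR adjusted p = 0.016), and was the 1 member of 10 called, where 1.31% of all genes were called higher and 1.93% in either direction. The other members did not pass: Cldn5 at 1.38 ± 0.49, Cdh5 at 1.09 ± 0.38, Flt1 at 0.94 ± 0.49, Emcn at 0.82 ± 0.29, Vwf at 0.76 ± 0.37, Pecam1 at 0.70 ± 0.27, Tek at 0.46 ± 0.43, Tie1 at 0.34 ± 0.31 and Egfl7 at −0.19 ± 0.40. The median was 0.79, beside −0.032 for all genes, and 5 of 10 had an unadjusted p under 0.05, where 3293 of 16702 genes did.

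The Kdr difference sat near the threshold: it missed it without Runx1 control replicate 2 (1.66, adjusted p = 0.054), Runx1 knockout replicate 2 (1.66, 0.067), Runx2 control replicate 2 (1.73, 0.055) or Runx2 knockout replicate 3 (1.69, 0.053). Without the library labelled Runx2 control replicate 3, 2624 of 17073 genes (15.4%, with 7.96% higher and 7.41% lower) and 5 members passed. All 5 were higher: Kdr (2.14), Cldn5 (1.76), Flt1 (1.63), Cdh5 (1.30) and Emcn (0.86). The library left out held the highest Runx2 control level of each, so its absence by itself raises these differences.

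Genes around the members that differed in the same direction were Sox17 (2.29 ± 0.48, edgeR adjusted p = 0.019), the endothelial adhesion receptor gene Adgrl4 (1.34 ± 0.34, 0.049), Angptl4 (2.22 ± 0.47, 0.023) and Pgf (1.83 ± 0.42, 0.032). Aplnr, the apelin receptor, differed in the opposite direction (−2.41 ± 0.56, adjusted p = 0.035) at low levels, 0.494 to 2.45 CPM in the Runx1 controls against 3.75 to 6.78 CPM in the Runx1 knockouts. For Angptl4 the Runx2 table held 252, 476 and 975 CPM in the controls and 1275, 867 and 1005 CPM in the knockouts. The library labelled control replicate 3 again lay within the range of the knockouts. Of other cells, the macrophage receptor gene Mertk differed (1.27 ± 0.28, adjusted p = 0.028). Of the 12 fits that each left out 1 library, Sox17 passed in 7, Angptl4 in 6, Aplnr in 4, Pgf in 3 and Adgrl4 in 2.

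Between the HFD and the flox Runx1 knockouts no member passed, where 3.22% of all genes did, 0.754% upward and 2.46% downward (6 of 10 members and 3063 of 16702 genes had an unadjusted p under 0.05, and DESeq2 called 2 members, Kdr and Cldn5). All 10 differences were above 0, with a median of 0.72 beside −0.031. The nearest were Cldn5 (1.76 ± 0.49, edgeR adjusted p = 0.059) and Kdr (1.29 ± 0.37, 0.066). Of the surrounding genes, Sox17 (2.52 ± 0.48, adjusted p = 0.0071), Vegfa (2.70 ± 0.70, 0.044), Pgf (1.76 ± 0.42, 0.025) and Angpt2 (1.22 ± 0.30, 0.028), a Tek ligand, differed upward, and Myct1 (−1.83 ± 0.39, 0.013) downward. Lymphocyte and venule genes differed downward, led by Cd79a (−6.72 ± 0.71), Cd79b (−5.56 ± 0.65), Ms4a1 (−8.11 ± 1.12), Ccr7 (−4.36 ± 0.65), Cd4 (−3.40 ± 0.52), Tcf7 (−4.23 ± 0.70), Glycam1 and Chst4, as did Thy1 (−1.82 ± 0.41). Sox17 and Myct1 passed in all alternatives, whereas of the 12 fits that each left out 1 library Pgf passed in 5, Angpt2 in 4 and Vegfa in 1. In HFD fat Vegfa was at 106, 217 and 139 CPM in WT and 446, 141 and 539 CPM in the knockout, where the second knockout library lay below the second WT library.

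Across the 18 fat libraries, after each group's mean was removed, the 10 genes varied together: all 45 pairs had a Pearson r above 0, with a median of 0.50. Kdr and Flt1 were closest (r = 0.93) and Kdr and Egfl7 most distant (r = 0.13). The libraries share depth, table and tissue make-up, so these values are descriptions with no test. Of 11167 other genes with a mean of at least 5 CPM, whose r with the mean of the members had a median of 0.0088 and a 99th percentile of 0.84, the 10 most alike were Lims2 (0.95), Coro2b (0.94), Adgrf5 (0.94), Tgfb1i1 (0.93), Pde2a (0.93), Cd300lg (0.93), Adgrg1 (0.93), Acvrl1 (0.93), Adcy4 (0.92) and Adam15 (0.92). None of these was called in any of the 3 knockout comparisons or either difference. Lims2 lay at −0.46, 0.92 and 0.47 on the log2 scale in the Runx1, Runx2 and HFD comparisons, the same order of signs as Kdr.

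By list, the median r with the members was 0.75 for the Notch, ephrin and BMP genes and 0.74 for the further endothelial genes. It was 0.60 for the adipocyte genes, 0.51 for pericyte and smooth muscle genes, 0.43 for the VEGF and angiopoietin genes and 0.35 for skeletal muscle genes. B cell and T cell genes ran the other way, at −0.58 and −0.41. Much of this rests on 1 library. Without the library labelled Runx2 control replicate 3 the median was 0.63 for the further endothelial genes, 0.55 for the Notch, ephrin and BMP genes, 0.26 for adipocyte genes, −0.0059 for skeletal muscle genes, −0.13 for B cell genes and −0.23 for T cell genes. With the 3 muscle-rich libraries of the Runx1 table left out too, which leaves 13 libraries in 5 groups, it was 0.49, 0.56, 0.11, −0.11, −0.093 and −0.10 in the same order. Over these 13 libraries 39 of 45 pairs of members stayed above 0 (median 0.43), Kdr and Flt1 had an r of 0.95, and the 10 most alike genes had a median r of 0.87.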

How the data were processed

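RNA-seq of 18 inguinal fat libraries was used for every comparison, and 25 culture libraries for levels alone. Per the submitters' processing notes the reads passed through fastp, STAR and featureCounts on the mm39 build, with versions and options not given in the sources used here. The values are raw counts per gene symbol as the authors deposited them, and every count table was used without change. The log2 fold change and the adjusted p-value of the authors' deposited table for the HFD pair are the submitters' own; 10 columns of per-sample values in deposited lists were not used.

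Each fat table was fitted alone in edgeR 4.0.16 (R 4.3.3). Genes were kept by filterByExpr, libraries scaled by TMM, and effects tested by the quasi-likelihood method in its robust form; both differences of effects were tested in 1 fit of the 18 libraries, so table and condition cannot be told apart there. P-values were adjusted by Benjamini-Hochberg over all genes tested, and a gene was called at an adjusted p under 0.05. CPM are TMM-scaled within a table unless stated. Likeness used log2 CPM with a prior count of 2, centred on group means. Exon lengths came from GENCODE vM21. The steps were tested on simulated data.

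The members, 16 gene lists and the naming rule were chosen with earlier results of these data known. The rule names all members, Runx1 and Runx2, up to 3 called genes of lowest adjusted p per list and direction in each comparison, and the 10 most alike genes; other values of those genes, and a few related ligand and receptor genes, are printed beside them. Alternatives were DESeq2 1.42.0 and its size factors, no filter on low counts, a replicate block, the fit of all 18 libraries, a lymphocyte covariate and each library left out. Leaving out 3 muscle-rich libraries, a muscle covariate, an adipocyte covariate and correlations without the libraries that stood apart were added after seeing the data. Same-numbered libraries are not stated to share an animal or batch and did not all vary together, so the block is an alternative only.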

Additional observations from a re-analysis of the deposited data

Results flagged for a closer look

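The difference between knockout effects passed edgeR's test for several endothelial and ligand genes. On the log2 scale the Runx2 effect minus the Runx1 effect was 1.83 for Kdr, 2.29 for Sox17, 1.34 for Adgrl4, 2.22 for Angptl4, 1.83 for Pgf and −2.41 for Aplnr. The HFD Runx1 effect minus the flox Runx1 effect was 2.52 for Sox17, −1.83 for Myct1, 1.76 for Pgf, 1.22 for Angpt2 and 2.70 for Vegfa. Both sets use the same 6 libraries of the Runx1 table.

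A few members were also detected in cultures, which no comparison above uses. In cultures that overexpressed Runx2, Kdr was at a median of 9.24 CPM (7.14 to 9.46, from 250 to 466 counts) against 0.367 to 1.23 CPM in the control cultures (12 to 40 counts). Flt1 was at 3.23 CPM (2.86 to 4.10) against 0.429 to 0.864, and Vwf at 2.55 CPM (2.38 to 4.09) against 0.122 to 0.679. Vwf also lay above these controls in cultures that overexpressed Runx1, at 0.703 to 2.37 CPM. Kdr and Flt1 spread widely in those Runx1 cultures and overlapped the controls. Kdr had a median of 0.201 CPM (0.0461 to 5.18) and Flt1 of 1.11 CPM (0.602 to 7.74). Kdr had no count in the separate cultures labelled full length Runx2 or delete Runx2 IDR. There Flt1 was at 0.296 to 0.414 and 0.361 to 0.365 CPM, and Vwf at 0 to 0.0591 and 0 to 0.0602 CPM. In cultures with both Runx genes knocked out, Egfl7 was at 19.1 CPM (18.6 to 24.7) against 12.7 to 16.9 in the controls. All of these lie below the levels in fat, where Kdr, for example, ran from 73.6 to 325 CPM and Egfl7 from 82.7 to 264 CPM scaled by library total.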

How the results depend on the processing

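The members' calls are few and near the threshold. In the Runx1 comparison (1189 genes and 2 members called), DESeq2 called 2265 genes and 4 members, no filter 1 member, the fit of 18 libraries 418 genes, the 3 muscle-rich libraries left out (1 knockout library against 2 controls, the lone library assumed to vary like them) 415 genes and 0 members, and the muscle covariate 353 genes and 1 member; single libraries left out gave 99 to 1381 genes and 0 to 2 members, the fewest without knockout replicate 2. In the Runx2 comparison (0 genes), DESeq2 called 955 genes, the fit of 18 libraries 461, the lymphocyte covariate 69 and the adipocyte covariate 96, and single libraries left out 0 to 6354 genes and 0 to 5 members. In the HFD pair (318 genes), DESeq2 called 554, the fit of 18 libraries 494 and the lymphocyte covariate (hardly separable from the groups there) 0, with 120 to 394 genes and 0 members over single libraries left out. For the Runx2 minus Runx1 difference (322 genes, 1 member) DESeq2 called 1105 genes, and single libraries left out gave 78 to 2624 genes and 0 to 5 members; for the HFD minus Runx1 difference (537 genes, 0 members) DESeq2 called 1246 genes and 2 members, and single libraries left out gave 259 to 662 genes and 0 to 1 member. The causes of these moves were not tested, beyond fewer libraries in the fits that leave some out.

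The replicate block called 744 genes and 1 member in the Runx1 comparison, 206 genes in the HFD pair, and 84 genes and 0 members (Kdr 1.93, edgeR adjusted p = 0.051) and 309 genes in the 2 differences; it changed no other count of members. Correlations of same-numbered libraries were 0.25, 0.33 and −0.21 in the Runx1 table, 0.025, 0.20 and 0.41 in the Runx2 table and −0.076, −0.14 and −0.21 in the HFD table, so the numbers are not taken to pair libraries.

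Some signs turned. In the Runx1 comparison Tek was at 0.63 without the muscle-rich libraries and 0.056 with the muscle covariate, and Egfl7 at −0.022 with it; over single libraries left out Tek ran from −0.34 to 0.13 and Egfl7 from −0.053 to 0.20. In the Runx2 comparison the lymphocyte covariate gave Flt1 −0.27, Tek −0.23, Tie1 −0.43, Cldn5 −0.70 and Runx2 0.093, and the adipocyte covariate Cdh5 −0.11, Flt1 −0.49, Tek −0.34, Tie1 −0.52, Cldn5 −0.82 and Runx2 0.27; over single libraries left out Tie1 ran from −0.14 to 0.33, Cldn5 from −0.25 to 0.49 and Egfl7 from −0.29 to 0.089. In the HFD pair the lymphocyte covariate gave Pecam1 −0.068, Tie1 −0.064, Egfl7 −0.61, Runx1 0.73, Cd4 1.06 and Tcf7 2.51. Lymphocyte genes part the groups of that pair, so the fit can hardly separate the covariate from the knockout. Skeletal muscle genes, at a median r of 0.35 with the members, were at −0.0059 without the library labelled Runx2 control replicate 3 and at −0.11 without it and the muscle-rich libraries. Each member had at least 756 counts in every fat library.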

Other observations

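Other vessel-related lists gave few calls. In the Runx1 knockout, Fgl2, one of 7 tested lymphatic endothelial genes, fell from 109, 59.2 and 66.1 CPM to 42.2, 33.9 and 43.7 CPM (log2 fold change −0.97 ± 0.23, edgeR adjusted p = 0.036), and the list's median was −0.50; Fgl2 is also made by macrophages and T cells. None of the 6 high endothelial venule genes (median −0.40), 14 pericyte and smooth muscle genes (median −0.12) or 17 junction and leukocyte adhesion genes (median −0.31) passed there. At an unadjusted p under 0.05 stood 1, 4 and 6 of them, beside 3994 of all 15896 genes tested.

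Among other cells of the Runx1 table, the macrophage gene Mrc1 fell from 106, 70.8 and 68.7 CPM to 47.2, 29.2 and 41.2 CPM (−1.07 ± 0.22, edgeR adjusted p = 0.023), with 9 of 10 macrophage genes below 0. Pf4, a platelet gene, fell (−0.87 ± 0.21, adjusted p = 0.036), as did Col15a1, a matrix gene of stromal cells and vessel basement membranes, from 148, 145 and 134 CPM to 82.7, 84.2 and 96.7 CPM (−0.70 ± 0.12, adjusted p = 0.011). Slc2a4, the insulin-responsive glucose transporter of adipocytes, rose from 76.4, 136 and 117 CPM to 224, 213 and 210 CPM (0.97 ± 0.19, adjusted p = 0.018). Of the 6 fits that each left out 1 library, Col15a1 passed in 5, Mrc1 in 4, Slc2a4 in 3, and Fgl2 and Pf4 in 2. All 5 were lost in the fit without knockout replicate 2. With the muscle sum as covariate Col15a1 alone of these passed (adjusted p = 0.042), and with the lone knockout library low in muscle transcripts Mrc1 was at −0.89, Pf4 at −0.73, Col15a1 at −0.77, Slc2a4 at 1.21 and Fgl2 at −1.06.

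With Runx2 deleted, 13 of 14 pericyte and smooth muscle genes lay above 0 (median 0.55), and in the HFD pair 10 of 14 (median 0.27), with none called in either.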
